A study of Mus musculus with 6 samples.

Results

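A set of 10 imprinted genes that regulate growth was followed in the ureteric epithelium of the mouse embryo, whose branches become the collecting ducts of the kidney: Cdkn1c, H19, Igf2, Igf2r, Dlk1, Meg3, Grb10, Peg3, Peg10 and Mest. They were chosen by symbol, and all 10 had values among the 21456 gene symbols of the table. A symbol's value is the sum of its rows in RPKM (reads scaled by transcript length and by the mapped reads of the library), as deposited by the authors. The kidneys came from CFW mice at stage E16.5. Tip cells carried both reporters, Wnt11RFP+;Hoxb7GFP+, and stalk cells carried the green reporter alone, Wnt11RFP-;Hoxb7GFP+, with 3 libraries in each group. The Hoxb7 reporter was thus present in every library, and the groups were separated by Wnt11 reporter signal only. Whether different animals or litters gave the libraries is not stated in the labels, so each p-value refers to the spread between these libraries, which may be technical.

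An imprinted gene is transcribed mainly from the copy inherited from 1 parent, because DNA methylation set in the germ line differs between the parental copies. Many such genes act on fetal growth: as a rule of thumb, paternally expressed genes such as Igf2, Peg3 and Mest promote it, and maternally expressed genes such as Cdkn1c, Igf2r, H19 and Grb10 restrain it. Loss of CDKN1C function and gain of IGF2 expression both occur in human Beckwith-Wiedemann overgrowth, and mice lacking Cdkn1c have defects of the inner medulla of the kidney. In bulk libraries, fewer cells of a type and less RNA per cell cannot be told apart. The libraries do not separate the parental copies, so all values below are total RNA of a gene, and parent of origin is stated as background from other tissues.

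The labels were checked against markers of the sorted cells. All 6 listed tip markers, Wnt11 among them, were higher in tip, with a summed level of 1021 to 1800 RPKM against 48.6 to 112 in stalk. Wnt11 made up 930, 423 and 726 RPKM of this sum in tip replicates 1 to 3. Because the groups were sorted by a Wnt11 reporter, Wnt11 is not an independent check of the labels. All 6 listed stalk markers were higher in stalk, with 1054 to 1576 RPKM against 10.9 to 33.5 in tip. Tip replicate 2 and stalk replicate 1 were the libraries with the least of their own group's markers. Tip replicate 2 also had the highest summed stalk markers of its group, and 6 members (H19, Igf2, Meg3, Dlk1, Peg3 and Peg10) were also highest there among the tip libraries. Markers of endothelium moved with the groups as well: 11 of 11 tested were higher in stalk. Their summed level was 26.6, 28.4 and 30.5 RPKM in tip replicates 1 to 3 and 123, 74.2 and 100 RPKM in stalk replicates 1 to 3. Within stalk, H19, Igf2 and Igf2r had the same order of libraries as this sum, highest in replicate 1 and lowest in replicate 2. Meg3 had another order, highest in stalk replicate 2 (26.0 RPKM) and lowest in stalk replicate 3 (21.1 RPKM). Within tip, the endothelial sum was highest in replicate 3, where H19, Igf2 and Igf2r were lowest. Most of the sum in tip was Egfl7 (tip mean 18.1 RPKM), which had the smallest difference of the tested endothelial markers (-0.43). Its order therefore weighs heavily on that of the sum. Egfl7, Kdr, Emcn, Flt1 and Sox17 were highest in tip replicate 3, and Tie1 in tip replicate 1. Pecam1, Cdh5, Tek, Plvap, Cldn5 and Esam were highest in tip replicate 2, where H19 and Igf2 were also highest. The part of endothelial RNA in the results on H19, Igf2 and the other members higher in stalk was not tested. Stromal markers summed to 5.52 to 10.3 RPKM in tip and 6.23 to 10.4 RPKM in stalk, 0 of 4 tested were called, and 11 of the 12 listed were at most 3 RPKM in every library. Nephron progenitor markers summed to 4.98 to 7.21 RPKM in tip and 2.01 to 3.72 RPKM in stalk. Both tested ones, Cited1 and Crym, were higher in tip, and 7 of the 8 listed were at most 3 RPKM in every library. The untested ones were mixed. Six2 and Tmem100 had higher means in tip, whereas Osr1, Meox1, Itga8 and Eya1 had higher means in stalk. The part of nephron progenitor RNA in the results on members higher in tip was not tested. Pan-ureteric markers had 1 call toward tip (Calb1) and 2 toward stalk (Gata3 and Cdh1). Early nephron markers had 2 toward tip (Lhx1 and Jag1) and 2 toward stalk (Wnt4 and Bmp2). Immune markers had 1 each way (Cd68 toward tip, Laptm5 toward stalk). Podocyte and erythroid markers had 0 calls, with erythroid sums of 12.7 to 72.9 RPKM in tip and 10 to 86.3 RPKM in stalk. The part of these cells was not tested either.

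**Figure D1:**
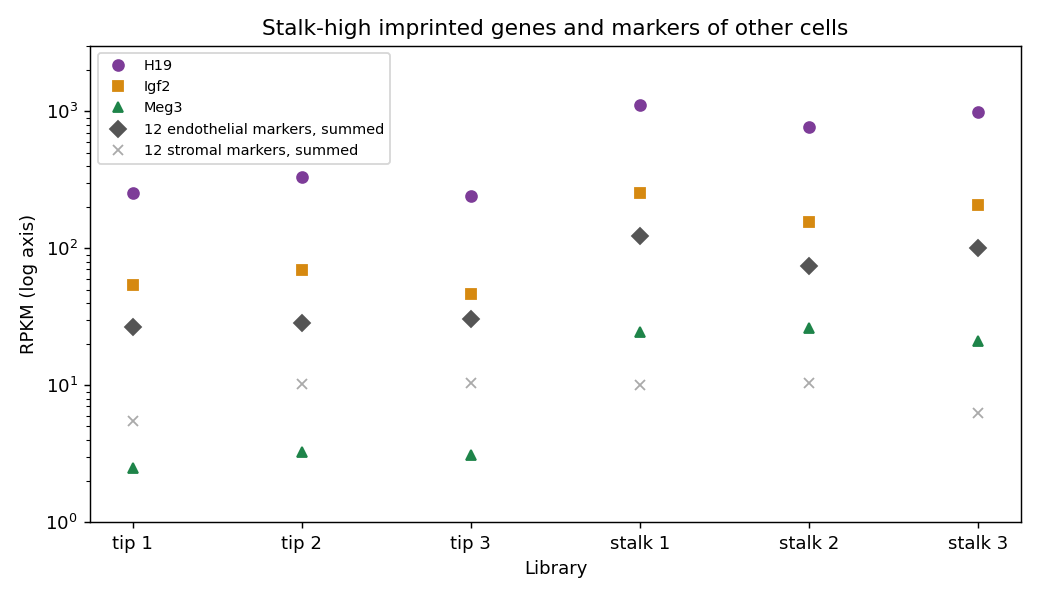
RPKM (log axis) of H19, Igf2 and Meg3 and summed RPKM of 12 endothelial and 12 stromal markers in each of the 3 tip and 3 stalk libraries, 1 point per library. Endothelial markers lie at 26.6 to 30.5 RPKM in tip and 74.2 to 123 RPKM in stalk, while stromal markers overlap between the groups.

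The members fell on both sides of the comparison. Mest, Peg10, Cdkn1c and Grb10 were higher in tip, and Meg3, Igf2, H19 and Igf2r were higher in stalk. Peg3 was not called, and Dlk1 stayed under 1 RPKM in all 6 libraries and was not tested. Of the 9 members that averaged 1 RPKM or more, 8 therefore passed limma's test at a Benjamini-Hochberg adjusted p under 0.05, 4 in each direction. Over all 12532 genes tested, 48.6% passed, 26.1% toward tip and 22.5% toward stalk, so a call as such was common. In 8 of the 9 tested members the 3 libraries of 1 group all lay above the 3 of the other, as they did in 57.8% of all tested genes. Without tip replicate 2 and stalk replicate 1, a choice made after seeing the data, 4 members were again called toward each side, with differences of 1.09 for Cdkn1c, -1.82 for H19, -1.82 for Igf2, -0.40 for Igf2r, -2.69 for Meg3, 0.60 for Grb10, 1.47 for Peg10 and 2.94 for Mest. The median absolute log2 difference was 1.34 over the tested members and 0.39 over all tested genes. Since the members were chosen with earlier results of these data known, these medians cannot show that imprinted genes changed more than others.

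**Figure D2:**
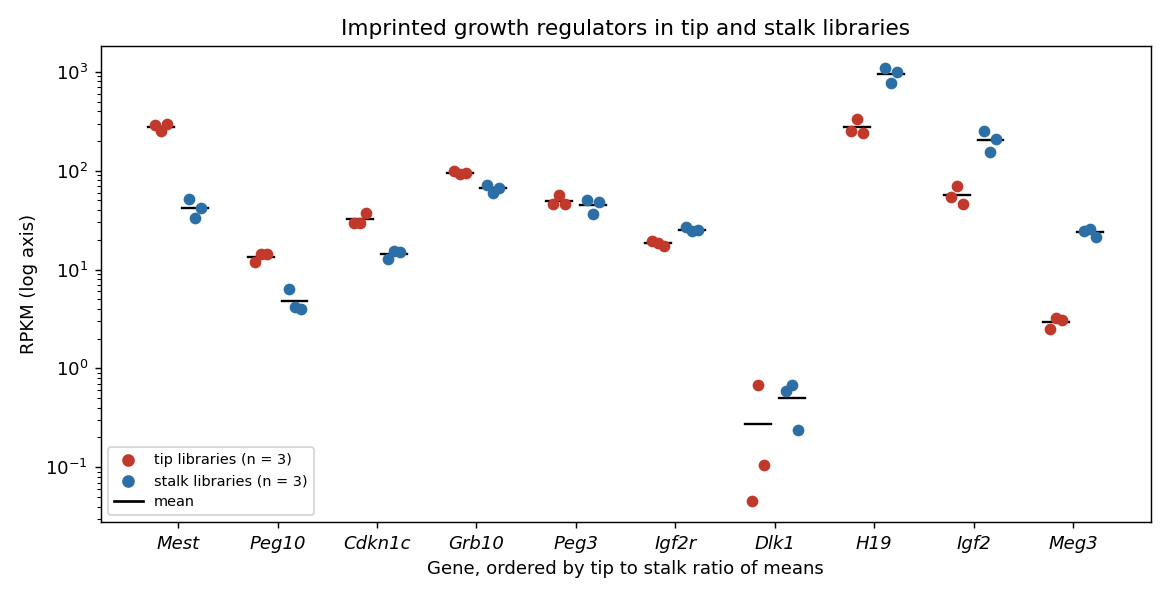
RPKM (log axis) of the 10 imprinted genes in each of the 3 tip and 3 stalk libraries, with a bar at each group mean. Mest has the largest difference toward tip (254 to 296 RPKM against 32.9 to 51.8), Meg3 the largest toward stalk (21.1 to 26.0 against 2.48 to 3.24), and the groups overlap for Peg3 and Dlk1.

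The 3 members with the largest differences, Mest, Meg3 and Igf2, and H19 beside them, contain microRNA genes within their bounds. Both arms of 1 microRNA each from H19, Meg3 and Mest are shown, because the RNA measured here comes from the genes that hold them. Not printed are miR-1906, which lies in an exon of Meg3, and miR-483, which lies within Igf2. The microRNAs themselves were not measured in these libraries. Capitals mark the seed, bases 2 to 8 from the 5′ end, which pairs with targets. No seed is shared among these 6 sequences. The sequences are those of RefSeq (GRCm38.p6).
mmu-miR-675-5p: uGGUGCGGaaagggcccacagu
mmu-miR-675-3p: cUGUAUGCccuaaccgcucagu
mmu-miR-770-5p: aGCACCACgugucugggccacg
mmu-miR-770-3p: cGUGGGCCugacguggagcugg
mmu-miR-335-5p: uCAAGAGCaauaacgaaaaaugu
mmu-miR-335-3p: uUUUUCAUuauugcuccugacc

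The miR-675 hairpin lies at chr7:142577064-142577147 (minus strand), inside an annotated exon of H19. The miR-770 hairpin lies at chr12:109563692-109563785 (plus strand), inside an exon of a Meg3 transcript. The miR-335 hairpin, at chr6:30741299-30741396 (plus strand), lies within Mest but in no annotated exon of it.

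Among the growth restrainers, Cdkn1c encodes p57Kip2, an inhibitor of cyclin-dependent kinases that holds cells back from S phase. It stood at 29.8, 29.6 and 37.8 RPKM in tip replicates 1 to 3 and at 12.9, 15.5 and 15.1 RPKM in stalk replicates 1 to 3. Every tip library was above every stalk library, and the lowest tip value was well clear of the highest stalk value. The tip mean was 32.4 ± 4.65 RPKM and the stalk mean 14.5 ± 1.41 RPKM (SD, n = 3), a 2.24-fold ratio. On the log2(RPKM + 1) scale the difference was 1.10 (SE 0.13, 95% interval 0.81 to 1.40, limma adjusted p = 0.000231). Cdkn1c (ENSMUSG00000037664.13, chromosome 7, 143458339 to 143461050, minus strand, GRCm38, which is mm10) had 2 rows in the table. The more abundant row held 81.6% to 86.9% of the symbol's RPKM in tip and 70.4% to 97.8% in stalk. Its mean was 27.6 ± 4.42 RPKM in tip against 12.6 ± 3.17 RPKM in stalk, the same order as the sum. An antisense gene, Gm44732, overlaps 892 bases of Cdkn1c, and since the use of strand in counting is not given in the sources used here, its reads cannot be told apart from those of Cdkn1c.

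Cdkn1c was set beside its relatives and the cell cycle genes it acts on. The other Cip/Kip inhibitor genes are given by their own values, and their difference from Cdkn1c was not tested. Cdkn1b, which encodes p27Kip1, had 22.0 ± 1.15 RPKM in tip against 20.8 ± 3.48 RPKM in stalk and was not called (log2 difference 0.09, 95% interval -0.22 to 0.39, limma adjusted p = 0.611). Cdkn1a, which encodes p21Cip1, was higher in stalk at 33.2 ± 14.1 against 14.2 ± 9.52 RPKM (-1.28, limma adjusted p = 0.0404), with overlapping libraries. That call was lost in 7 alternatives, among them leaving out tip replicate 1 (-0.86, adjusted p = 0.121) or stalk replicate 1 (-0.97, adjusted p = 0.106). Of the 18 tested genes in a list of Cip/Kip and G1 genes, 10 were called toward tip and 2 toward stalk. Over all tested genes these shares were 26.1% and 22.5%. The median log2 difference was 1.12 in the list beside 0.05 over all tested genes. The cyclin genes Ccnd1 (2.81) and Ccne1 (1.99), the S phase regulator E2f1 (1.91) and Skp2 (1.84), whose product marks Cip/Kip proteins for degradation, changed most. The kinase genes Cdk2 (42.8 ± 3.14 against 18.8 ± 1.83 RPKM) and Cdk4 (261 ± 18.0 against 122 ± 5.35 RPKM) were also higher in tip, and cyclin D3 (Ccnd3) was higher in stalk (-1.27). Cdkn1c, an inhibitor gene, and 10 of the 18 genes of this list were thus higher in the same group.

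Grb10 encodes an adaptor that binds the insulin and IGF1 receptors and dampens their signalling. It stood at 99.0, 92.9 and 94.3 RPKM in the tip libraries and at 71.7, 60.1 and 67.2 RPKM in the stalk libraries, and the groups did not overlap. The difference was small, 0.52 on the log2 scale (SE 0.10, limma adjusted p = 0.00241), a 1.44-fold ratio of means. Grb10 lies on chromosome 11 (11930508 to 12038683, minus strand). Its 9 rows were dominated by 1, which held 93.1% to 96% of the symbol's RPKM in every library. Of the 6 tested genes in a list of Grb10 relatives and partners, Grb7 was higher in tip (0.66) and Grb14 higher in stalk (-1.40, 11.6 ± 0.929 against 32.3 ± 0.442 RPKM). Grb10, Grb7 and Grb14 are paralogs, so reads shared between them would be uncertain in this table.

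Igf2r encodes the cation-independent mannose 6-phosphate receptor, which carries IGF2 to the lysosome for breakdown. It stood at 19.6, 18.6 and 17.3 RPKM in tip and at 27.0, 24.3 and 24.9 RPKM in stalk. The groups did not overlap, and the difference was the smallest among the called members, -0.44 (SE 0.10, limma adjusted p = 0.0069). Igf2r (chromosome 17, 12682406 to 12769664, minus strand) overlaps the noncoding antisense gene Airn over 28354 bases. Airn is the transcript that silences Igf2r on the paternal copy in most embryonic tissues. Airn had 2.96 ± 0.961 RPKM in tip against 5.29 ± 0.818 RPKM in stalk and was called toward stalk (-0.69, limma adjusted p = 0.0223). Its call was lost in 7 of the alternatives, among them each of leaving out tip replicate 2 (adjusted p = 0.061), tip replicate 3 (0.0606), stalk replicate 1 (0.0558) and stalk replicate 2 (0.0647). Without stated use of strand, reads of Igf2r and Airn cannot be told apart where they overlap.

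H19 is a long noncoding RNA, among the most abundant transcripts of many fetal tissues, and the host of miR-675 printed above. It stood at 254, 331 and 239 RPKM in tip replicates 1 to 3 and at 1106, 772 and 989 RPKM in stalk replicates 1 to 3. The lowest stalk library exceeded the highest tip library, and in stalk H19 ranked 24 among all 21456 symbols by mean RPKM, against 167 in tip. The means of 275 ± 49.2 and 955 ± 169 RPKM gave a 3.48-fold ratio toward stalk, with a log2 difference of -1.79 (SE 0.17, limma adjusted p = 7.51e-05). Of the 5 rows of H19, 1 carried 94.4% to 98.3% of the total in every library.

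Igf2 encodes insulin-like growth factor 2, the main IGF ligand of the fetus. It stood at 54.0, 69.6 and 46.4 RPKM in tip and at 253, 154 and 208 RPKM in stalk. The groups were separated by more than the spread within either, at 56.7 ± 11.8 and 205 ± 49.3 RPKM, a 3.62-fold ratio toward stalk. The log2 difference was -1.83 (SE 0.20, limma adjusted p = 0.000166).

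H19 and Igf2 are neighbours (chromosome 7, 142575529 to 142578143 and 142650766 to 142666816, both minus strand). As background, they use shared enhancers and are expressed from opposite parental copies under 1 imprinting control region. The log2 ratio of Igf2 to H19, with 1 RPKM added to each, was -2.21, -2.23 and -2.34 in tip and -2.12, -2.31 and -2.24 in stalk. Its means were -2.26 ± 0.07 and -2.23 ± 0.10, a difference of -0.04 (exact two-sided permutation test, p = 0.7, n = 3 against 3). Among 9155 other genes that averaged 5 RPKM or more, the gene whose log2 values were most like those of H19 over the 6 libraries was Igf2 (Pearson r = 0.9978). Next came Ppip5k1 (0.9978) and Lrrc16a (0.9969). This likeness is a description over 6 points in 2 groups, and any gene with a steady difference between the groups scores high. For Cdkn1c the genes most alike were Sdf2l1 (0.9990), Rcn3 (0.9976) and Amigo2 (0.9972), none of them in the list of members.

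The rows of Igf2 differed in how far they were apart between the groups. The most abundant row stood at 18.1, 33.0 and 18.8 RPKM in tip and at 198, 105 and 158 RPKM in stalk, a 6.59-fold ratio of means. The next row stood at 25.8, 26.6 and 20.1 RPKM in tip and at 41.7, 29.1 and 37.4 RPKM in stalk, a 1.49-fold ratio, and the third was nearly level at 7.37 ± 1.19 and 7.83 ± 0.691 RPKM. The leading row held 33.6% to 47.4% of Igf2 RPKM in tip and 67.9% to 78.2% in stalk, with no overlap between the groups. With only the highest row of each symbol, the log2 difference of Igf2 was -2.67 and that of the Igf2 to H19 ratio was -0.90, so the level ratio between these genes depends on summing the rows. The rows carry no transcript identifier, so they cannot be assigned to the known alternative promoters of Igf2, and the annotated gene Gm49394 overlaps 16048 bases of it on the same strand. The antisense gene Igf2os overlaps 7124 bases of Igf2, and without stated use of strand its reads cannot be told apart there. How reads were divided between rows is not given in the sources used here.

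**Figure D3:**
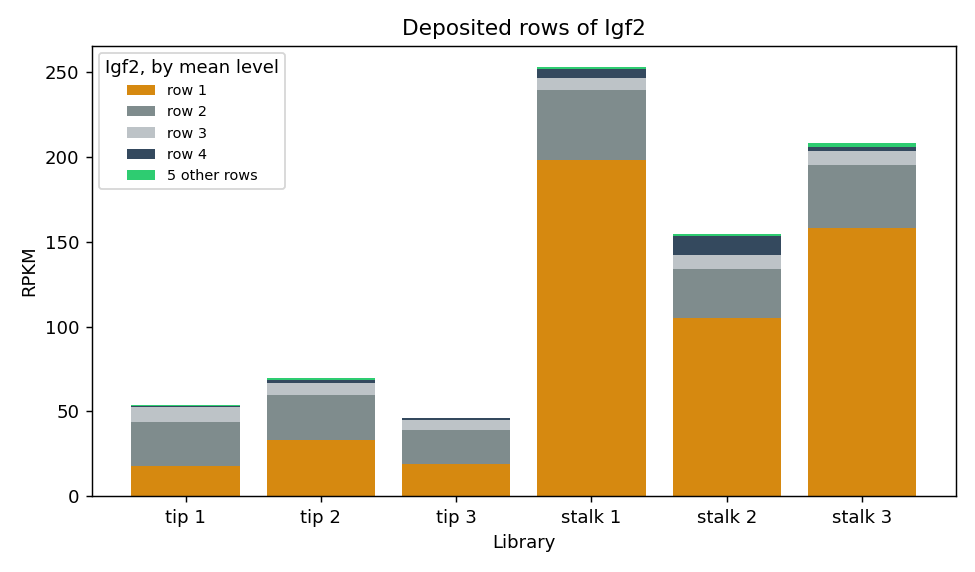
RPKM of the deposited rows of Igf2 in each library, stacked in order of mean level and summing to the symbol's value. The leading row makes up 105 to 198 RPKM in the stalk libraries and 18.1 to 33.0 RPKM in the tip libraries. Rows 2 and 3 differ less, and row 4 is low but 5.71-fold higher in mean in stalk.

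Igf2 and its clearance receptor gene Igf2r were both higher in stalk, but by different amounts. The log2 ratio of Igf2 to Igf2r was 1.42, 1.85 and 1.38 in tip and 3.18, 2.62 and 3.02 in stalk, a difference of -1.39 with no overlap (exact two-sided permutation test, p = 0.1, the smallest that 3 against 3 libraries allow). The signalling receptor gene Igf1r went the other way, with 17.1 ± 2.42 RPKM in tip against 5.37 ± 0.388 RPKM in stalk (3.18-fold, limma adjusted p = 5.63e-05). The IGF axis list split evenly, with 7 of its 17 tested genes called toward tip and 7 toward stalk (median 0.08). Over all tested genes, 26.1% were called toward tip and 22.5% toward stalk. The binding protein genes split: Igfbp4 (2.44) and Igfbp2 (1.91) were higher in tip, and Igfbp7 (-2.68) and Igfbp5 (-1.36) higher in stalk. The receptor-related gene Insrr (16.9 ± 6.58 RPKM in stalk and 0 to 0.16 in tip) and the protease gene Pappa, whose product cleaves IGF binding proteins (3.20 ± 0.377 and 0.0857 ± 0.0396 RPKM), were on the stalk side. When tip replicate 3 was left out, the count toward tip was 4.

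Meg3 is a maternally expressed noncoding RNA that shares an imprinted domain with the paternally expressed Dlk1. It stood at 2.48, 3.24 and 3.11 RPKM in tip and at 24.6, 26.0 and 21.1 RPKM in stalk. The libraries of each group were close together and the groups far apart, with means of 2.94 ± 0.407 and 23.9 ± 2.51 RPKM, an 8.13-fold ratio toward stalk. The log2 difference was -2.66 (SE 0.13, limma adjusted p = 6.43e-06). On the opposite strand, Gm26906 overlaps 3096 bases of Meg3, where its reads cannot be told apart without stated use of strand. Meg3 (chromosome 12, 109541001 to 109571726, plus strand) had 11 rows, and the 2 leading rows by mean over all libraries were 9.98-fold and 10.8-fold higher in stalk. The third, which had the highest mean in tip at 1.21 ± 0.462 RPKM and held 65.4% of the symbol in tip replicate 1, was 3.81-fold higher in stalk at 4.6 ± 1.49 RPKM. Another noncoding RNA of the same domain, Rian, followed the same direction with 1.86 ± 0.409 RPKM in tip against 10.7 ± 0.0423 RPKM in stalk (-2.04, limma adjusted p = 2.14e-05).

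Dlk1 encodes a transmembrane protein related to Notch ligands. It stood at 0.046, 0.676 and 0.106 RPKM in tip and at 0.592, 0.678 and 0.239 RPKM in stalk. The groups overlapped, and no library reached 1 RPKM. With no filter on low values its difference was -0.26 (limma adjusted p = 0.466). The sequencing depth behind the table is unknown, so no limit of detection can be given for it. Since Dlk1 was near 0, the log2 ratio of Dlk1 to Meg3, which was -1.66 ± 0.28 in tip and -4.06 ± 0.09 in stalk (exact two-sided permutation test, p = 0.1, the smallest possible, n = 3 against 3), mostly reflects Meg3 and the 1 RPKM added. Over the 3 gene pairs compared, the Benjamini-Hochberg adjusted values of these exact tests were 0.15, 0.15 and 0.7, so none passed.

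Among the members that are expressed from the paternal copy, Mest changed most. Mest encodes a protein of the alpha/beta hydrolase fold that is widely made in embryonic mesoderm. It stood at 287, 254 and 296 RPKM in tip and at 51.8, 32.9 and 41.8 RPKM in stalk. All tip libraries were above all stalk libraries, at 279 ± 21.9 and 42.2 ± 9.46 RPKM, a 6.61-fold ratio, and the log2 difference was 2.72 (SE 0.16, limma adjusted p = 1.05e-05). Mest ranked 164 among all symbols in tip and 1510 in stalk. Its leading row of 12 held 94.8% to 97.2% of the RPKM in each library. The antisense gene Gm44296 overlaps 896 bases of Mest, where reads cannot be told apart without stated use of strand. Copg2, the neighbour whose end overlaps Mest over 912 bases on the opposite strand (Mest at chromosome 6, 30723547 to 30748465, plus strand), was at 23.8 ± 2.90 and 23.4 ± 3.67 RPKM and was not called (0.03, 95% interval -0.29 to 0.35, limma adjusted p = 0.89).

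The 250 bases before a start site of Mest and of Meg3 are shown, because these members changed most toward tip and toward stalk, respectively. Capitals mark CG dinucleotides, the sites where the methylation that carries imprints is placed. Methylation was not measured in these libraries. The Mest stretch (chr6:30737800-30738049, plus strand) holds 14 CG dinucleotides and the Meg3 stretch (chr12:109540746-109540995, plus strand) holds 10.
Mest: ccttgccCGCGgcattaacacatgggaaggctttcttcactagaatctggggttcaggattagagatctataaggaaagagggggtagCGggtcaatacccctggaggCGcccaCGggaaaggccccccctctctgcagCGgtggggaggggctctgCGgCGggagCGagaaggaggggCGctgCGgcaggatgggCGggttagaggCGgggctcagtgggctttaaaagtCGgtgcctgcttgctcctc
Meg3: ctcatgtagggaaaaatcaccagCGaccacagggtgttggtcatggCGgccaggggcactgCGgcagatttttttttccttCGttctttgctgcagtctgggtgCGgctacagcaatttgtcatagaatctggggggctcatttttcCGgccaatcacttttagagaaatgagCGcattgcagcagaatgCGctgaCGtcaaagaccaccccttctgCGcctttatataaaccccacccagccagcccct

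Promoter windows from RefSeq (GRCm38.p6), from 250 bases before to 50 bases after a start, were present for 7 of the 10 members, with 14 windows. The members without one were Cdkn1c, H19 and Peg10. GGGGCCCC, a motif bound by the imprinted zinc finger protein Plagl1, was found in 1 of the 14 windows (that of Peg3), and in 1.08% of all 32851 windows on either strand. GCCATNTT, a motif of the factor YY1, was found in 0 of the 14 windows and in 6.05% of all windows on either strand. A median window held 7 CG dinucleotides. The first of 2 Grb10 windows held 45, more than 98.1% of all windows, and the Igf2r window 34, more than 92.3%. The second Grb10 window held 9, more than 54.2% of all windows. Which start the deposited rows came from is unknown. At the low end, an Igf2 window held 2 and a Meg3 window 1. Grb10 was higher in tip and Igf2r higher in stalk.

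Peg10 derives from a retrotransposon and is required for the placenta. It stood at 11.9, 14.5 and 14.3 RPKM in tip and at 6.40, 4.15 and 3.97 RPKM in stalk, with no overlap. The ratio of means was 2.80-fold toward tip and the log2 difference 1.34 (SE 0.18, limma adjusted p = 0.000431). Within stalk, replicate 1 was the highest. Peg10 lies on chromosome 6 (4747306 to 4760517, plus strand), and the 3 leading rows of its 4 were each higher in mean in tip.

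Peg3 encodes a zinc finger protein that acts on growth and maternal behaviour. It stood at 46.6, 56.2 and 46.2 RPKM in tip and at 50.2, 36.7 and 47.7 RPKM in stalk. The groups overlapped, and the difference of 0.15 (SE 0.14, 95% interval -0.17 to 0.47) missed the threshold (limma adjusted p = 0.403). The interval reaches 0.47 toward tip, so a difference of up to that size was not excluded. The called differences of Grb10 (0.52) and Igf2r (-0.44) lie outside the interval, that of Grb10 close to its upper end. Peg3 lies on chromosome 7 (6703892 to 6730431, minus strand), far from H19 and Cdkn1c.

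Neighbouring imprinted genes were grouped by domain after values were seen. Calls lay in both directions on distal chromosome 7 and around Grb10, and in a single direction in the other domains. The Mest and Peg3 regions held 1 called gene each, so a single direction was certain there. In the Igf2r region the 2 called genes were Igf2r and Airn, whose reads cannot be told apart where they overlap. On distal chromosome 7, Cdkn1c lies between Kcnq1 and Slc22a18. Kcnq1, which encodes a potassium channel subunit, had 8.86 ± 0.828 RPKM in tip against 30.9 ± 3.26 RPKM in stalk (-1.69). Slc22a18, which encodes a membrane transporter, had 1.66, 3.06 and 2.46 RPKM in tip against 16.9, 15.4 and 17.2 RPKM in stalk (-2.39, limma adjusted p = 2.08e-05). Cdkn1c thus lay toward tip with both flanking genes toward stalk. Phlda2, a restrainer of placental growth, was also higher in stalk (-1.79, limma adjusted p = 0.016), but stood at 8.72 RPKM in tip replicate 2 against 1.87 and 1.96 RPKM in the other tip libraries. Its call was lost without tip replicate 1 (adjusted p = 0.0586) and without tip replicate 3 (adjusted p = 0.0578). Nap1l4 (0.44) and Tssc4 (0.61) were higher in tip, and Osbpl5 (-0.99) was higher in stalk. The Tssc4 call was lost with only the highest row per symbol (0.70, adjusted p = 0.101). Of the 10 genes tested across this region, which include 3 members, 3 were called toward tip, 6 toward stalk and 1, Cd81, toward neither. Over all tested genes, 26.1% were called toward tip and 22.5% toward stalk.

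**Figure D4:**
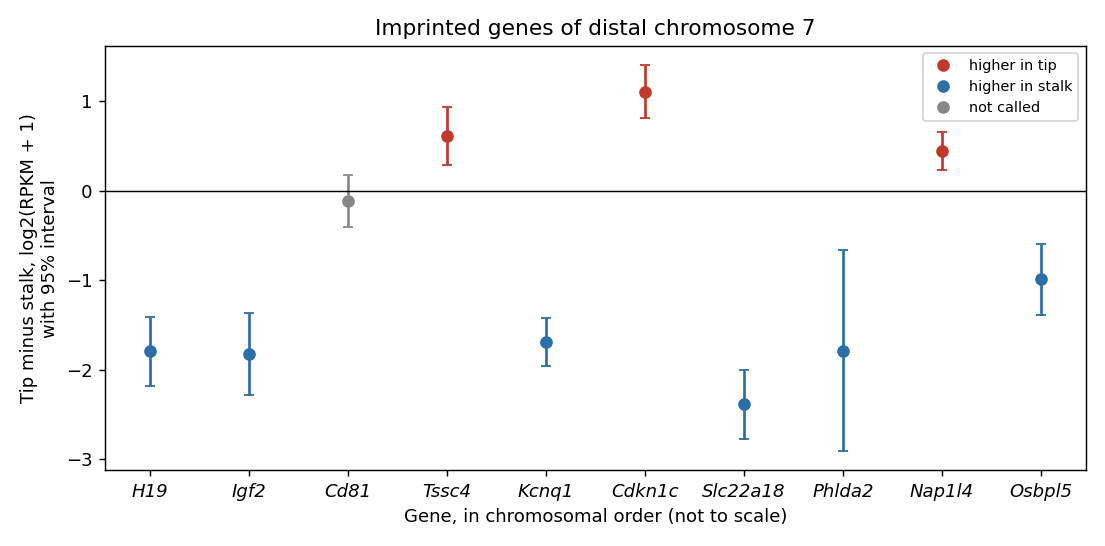
Tip minus stalk difference on the log2(RPKM + 1) scale, with limma's 95% interval, for the 10 tested imprinted genes of distal chromosome 7 in chromosomal order. Cdkn1c (1.10) lies above 0 while its neighbours Kcnq1 (-1.69) and Slc22a18 (-2.39) lie below.

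In the Peg10 region, 3 of 4 tested genes were called toward tip and 0 toward stalk. Besides Peg10 these were Asb4, which encodes a substrate receptor of ubiquitin ligases, at 22.1 ± 3.20 against 2.66 ± 0.636 RPKM (2.66), and Ppp1r9a (0.42). The Ppp1r9a call was lost with only the highest row per symbol (0.37, adjusted p = 0.101). Sgce, whose start lies next to that of Peg10, had a difference of 0.35 and was not called (limma adjusted p = 0.122). It passed without stalk replicate 2 (0.54, adjusted p = 0.0142) and with only the highest row per symbol (0.59, adjusted p = 0.0131). In the Dlk1 domain 2 of 3 tested genes, Meg3 and Rian, were higher in stalk, and Dio3 was not called (0.36, limma adjusted p = 0.241). Beside Grb10, the neighbour Ddc was called toward stalk (-1.01) at 0.541 ± 0.368 and 2.16 ± 1.11 RPKM, and Cobl was not called (-0.05). The Ddc call was lost with no filter (adjusted p = 0.0582), without tip replicate 2 (0.0537) and without tip replicate 3 (0.0517). Beside Peg3, Zim1 was higher in stalk (-1.02) at 0.698 ± 0.162 and 2.46 ± 0.465 RPKM.

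Other imprinted genes were counted from lists by assigned parent of expression, and the assignments were not checked here. Ddc, called toward stalk, was counted as maternally expressed, which may be wrong. Moving it would change the counts of both classes. Of 13 tested paternally expressed genes besides the members, 2 were called toward tip and 3 toward stalk (median 0.09). Nnat, which encodes a small membrane protein of developing brain, was higher in tip, at 123 ± 26.0 against 12.3 ± 1.66 RPKM (3.21, limma adjusted p = 7.87e-06). Slc38a4, an amino acid transporter gene, was higher in stalk at 65.4 ± 10.2 against 17.7 ± 7.94 RPKM (-1.90). Of 20 tested maternally expressed genes besides the members, 4 were called toward tip and 8 toward stalk (median -0.08). With members included, 4 of 17 paternally expressed genes were called toward tip and 4 toward stalk, and 6 of 25 maternally expressed genes toward tip and 11 toward stalk. The shares over all tested genes were 26.1% toward tip and 22.5% toward stalk. Both classes thus held genes in each direction, and the difference between the classes was not tested. Plagl1, which encodes a zinc finger regulator of several imprinted genes, was level at 51.6 ± 5.22 and 49.2 ± 11.3 RPKM (0.09, 95% interval -0.28 to 0.45, limma adjusted p = 0.682).

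**Figure D5:**
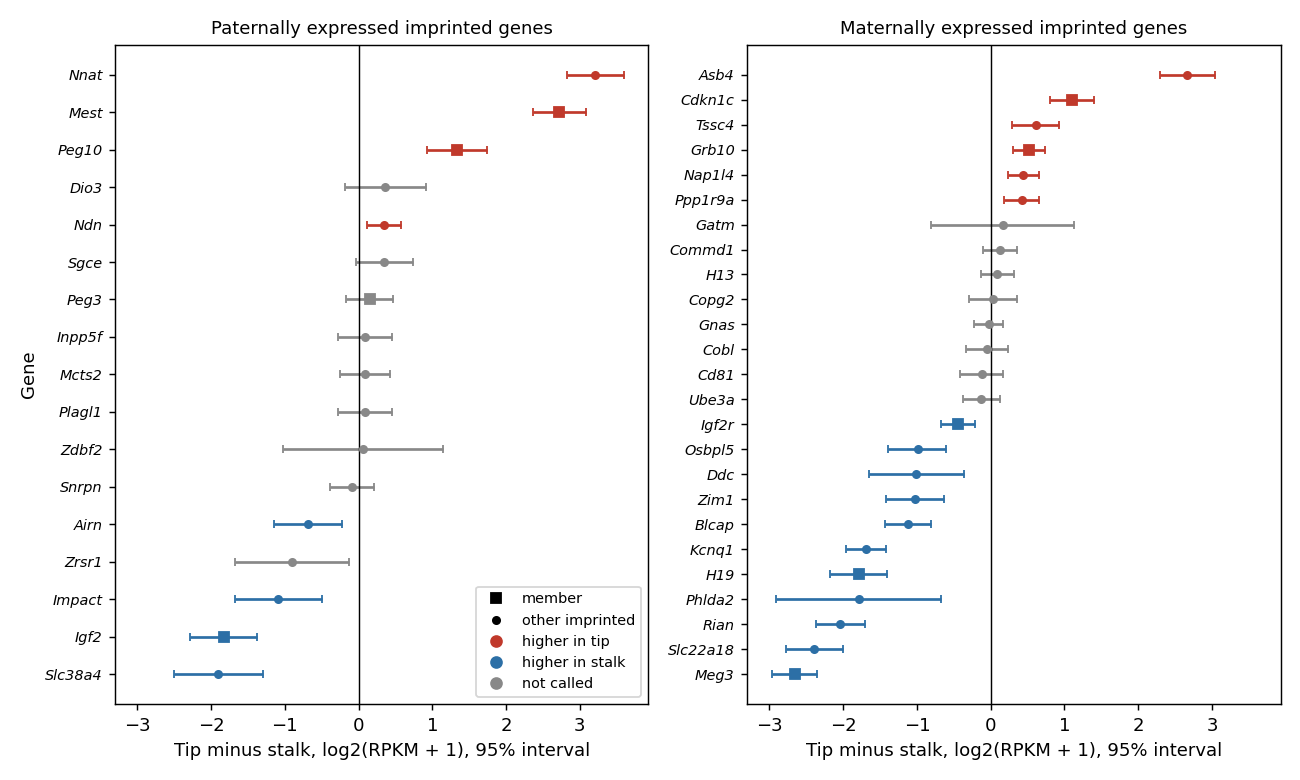
Tip minus stalk difference on the log2(RPKM + 1) scale with limma's 95% interval for the tested imprinted genes, split by assigned parent of expression. Ddc is placed among the maternally expressed genes, which may be wrong. Squares are the members, and both panels hold genes on either side of 0, from Nnat (3.21) and Asb4 (2.66) to Slc38a4 (-1.90) and Meg3 (-2.66).

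Genes that maintain imprints after fertilisation were also measured. Of 13 tested, 9 were called toward tip and 0 toward stalk by limma (median 0.73), and 0 were higher in stalk at an unadjusted p under 0.05. Over all tested genes, 26.1% were called toward tip and 22.5% toward stalk, with a median of 0.05. The count toward tip was 7 with only the highest row per symbol and 8 to 9 with 1 library left out. The call of Setdb1 (0.35) was lost in several alternatives, among them the replicate block (limma adjusted p = 0.0727) and only the highest row per symbol (0.421). Uhrf1 (1.92), which recruits the maintenance methyltransferase to copied DNA, Hells (1.48), a chromatin remodeler needed for DNA methylation, Dnmt1 (1.47), the maintenance methyltransferase itself, and Dnmt3b (1.24), a de novo methyltransferase, changed most. Trim28 (0.89), Zfp57 (0.73) and Ctcf (0.69), whose products bind imprinting control regions or are recruited to them, were also higher in tip, and were named after their values were seen. The Zfp57 call was lost with only the highest row per symbol (0.52, adjusted p = 0.128) and without tip replicate 2 and stalk replicate 1 together (0.57, adjusted p = 0.0558). Dnmt3a (-0.22), Arid4a (-0.07), Zfp445 (0.14) and Arid4b (0.19) were not called.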

How the data were processed

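Messenger RNA libraries of sorted tip and stalk cells, 3 each, were compared. The values are RPKM, deposited by the authors in 1 table of 93615 rows, of which 24545 held only question marks and were left out. Per the submitters' processing notes, bcl2fastq 2.17, TopHat2 and Partek were used with mm10, and libraries came from a stranded Kapa kit, per the labels' protocols. Other settings, the annotation and the use of strand in counting are not given in the sources used here. Sequencing depth is unknown, so no counting interval was given, and the precision rests on the 3 libraries per group.

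Rows were summed per symbol, since they carry no transcript identifier. Genes averaging 1 RPKM or more were tested on log2(RPKM + 1) by limma 3.58.1 (R 4.3.3), with a mean-variance trend, two-sided, tip minus stalk, and the Benjamini-Hochberg threshold of 0.05 over all 12532 genes. This scale understates the change of low genes. The fit was tested on simulated data. Ratios of 3 gene pairs were compared by exact permutation. Coordinates come from GENCODE M21, and sequences from RefSeq GRCm38.p6, the same build.

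The members and lists were chosen with earlier results of these data known. Named genes are the members, the 3 genes most like Cdkn1c and H19 in pattern, and up to 4 called genes of largest change in each list, or the 2 highest in level where fewer than 2 were called. Others, such as neighbours in a domain and Igf1r, Cdkn1a, Cdkn1b, Cdk2 and Cdk4, were named after their values were seen. Alternatives changed the pseudocount, filter, scaling, trend, row sum, replicate block and libraries left out. The planned comparison of Cip/Kip protein sequences was not made, as no protein table was used here.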

Additional observations from a re-analysis of the deposited data

How the results depend on the processing

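Over the 14 alternatives, the counts of members called stayed at 4 toward tip and 4 toward stalk, including with each library left out, and no named difference changed sign among the members. With 1 library left out, the lowest and highest log2 differences were 0.99 and 1.16 for Cdkn1c, -1.94 and -1.68 for H19, -2.02 and -1.67 for Igf2, -0.48 and -0.39 for Igf2r, -2.74 and -2.57 for Meg3, 0.45 and 0.58 for Grb10, 0.02 and 0.24 for Peg3 (never called), 1.23 and 1.52 for Peg10 and 2.55 and 2.87 for Mest. Genes called numbered 2511 to 3077 toward tip and 2256 to 2861 toward stalk over the same settings, and 3009 toward tip and 3143 toward stalk with median-ratio scaling. With only the highest row per symbol, the pair differences were -0.90 (Igf2 to H19), -2.25 (Igf2 to Igf2r) and 1.83 (Dlk1 to Meg3), and the last was 2.0 with a pseudocount of 0.1. Other paternally expressed genes higher in tip numbered 4 with no filter, 1 with median-ratio scaling and 1 to 2 with 1 library left out. Those higher in stalk numbered 1 with a minimum mean of 5 RPKM. IGF axis genes higher in tip numbered 4 to 7 with 1 library left out. Cip/Kip and G1 genes higher in stalk numbered 1 with no filter, 1 without the trend and 1 to 2 with 1 library left out. Grb10-related genes higher in tip numbered 2 with no filter. The cause of these shifts was not tested. Same-numbered libraries correlated at -0.303, -0.335 and 0.093 in their deviations from the group means. Higher values lay between tip replicate 2 and stalk replicate 1 (0.559), tip replicate 3 and stalk replicate 2 (0.397), and tip replicate 1 and stalk replicate 3 (0.334). Deviations within a group of 3 cancel out, so these correlations cannot show whether libraries were paired. The replicate block called 2716 genes toward tip and 2380 toward stalk, left 1 other paternally expressed gene higher in tip and 1 Cip/Kip gene higher in stalk, and changed no member's call. Depth is unknown.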
